A study of Homo sapiens with 4 samples.

Results

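Hepatocyte nuclear factor 4 alpha (HNF4A) was mapped on the chromatin of HCCLM3, an established human hepatocellular carcinoma cell line, at high and at low glucose. The comparison takes every one of the 5326 regions in the authors' table of HNF4A at high against low glucose, out of 5326 in the series. It uses 2 of the 4 libraries, HNF4A at high glucose and HNF4A at low glucose, with 1 library per group. The other libraries are made with IgG, an antibody of no specific target, at the same glucose levels, and they give the background. Per the labels, the cells carried a full-length cDNA delivered by lentivirus from a vector with a CMV promoter. The labels do not name that cDNA, whether all 4 libraries carried it, or the glucose concentrations. They name one high-glucose medium for all 4 samples, those called low glucose included. The labels also give a single cell line and no separate cultures. ChIP-seq measures bound DNA and no transcripts, so the liver origin of the cells could not be checked by the expression of markers.

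HNF4A is a nuclear receptor that binds DNA as a homodimer. In the liver it controls genes of lipid, glucose and bile acid metabolism, of drug handling and of secreted plasma proteins. AMPK, a kinase that senses low cellular energy, is named in the title of the series together with HNF4A. The design text asks which genes HNF4A occupies under different glucose conditions.

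The high glucose HNF4A library held 402237 reads over these regions and the low glucose one 295460. The median region held 50 and 35 reads, and IgG held 26 and 18. After the authors' scaling, HNF4A at high glucose lay above low glucose by a median log2 of 0.36. The authors did not scale IgG at high against IgG at low glucose. IgG was put on the HNF4A scale here, through the HNF4A library of each glucose level, and lay above by 0.51. All HNF4A values below are therefore the log2 of high over low glucose minus the HNF4A median, called the centred log2, so 0 is the middle region. IgG was centred on its own median, so 50% of its regions lie above 0 too. The range after each value is an exact 95% counting interval from the reads of the libraries compared. It covers counting error alone and treats the centring value as fixed. With 1 library per side there is no replicate check and no test of the conditions, so "higher" and "lower" describe these libraries. Genes are named as the closest in the authors' annotation, and coordinates are hg19.

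Most regions held similar HNF4A at both glucose levels once centred. Within 1.5-fold in either direction lay 83.6% of the regions, the SD was 0.46, and the middle part from the lower to the upper quartile ran from -0.27 to 0.27. At least 2-fold higher at high glucose were 90 regions, 1.69% of all, and at least 2-fold lower were 107, 2.01% of all. The counting interval lay above 0 in 356 regions (6.68%) and below 0 in 311 (5.84%). By the false discovery rate of the authors' deposited table, 0 regions (0%) passed 0.05, and the lowest rate was 0.914. By its unadjusted p under 0.05, the authors' deposited table has 234 regions higher at high glucose (4.39%) and 12 lower (0.225%). The fold behind those directions is not centred.

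The far ends of the whole table rested on few reads. The highest value, 2.03 (0.48 to 4.02), lay nearest to DHX34, a helicase gene, on 23 reads at high and 4 at low glucose. CHD5, a chromatin remodeller gene, followed at 2.01 (0.22 to 4.42) on 17 and 3 reads. The lowest value, -4.19 (-9.60 to -1.46), lay nearest to DNAH5, an axonemal dynein gene, on 1 and 13 reads. A listed 1 may stand for 0, so that value is no firm size. The genes of both ends below were therefore taken from the 2666 regions at or above the median level, while gene lists and families use regions of every level. Among the 2666, 30 were at least 2-fold higher at high glucose (1.13%) and 4 at least 2-fold lower (0.15%). The limit is set on the mean level of both HNF4A libraries, not centred, so a region can pass through its high glucose reads alone. It leaves out 103 of the 107 regions that were at least 2-fold lower and 60 of the 90 higher, so these counts cannot be read as a balance of directions. Intervals lay above 0 in 256 of them (9.6%) and below 0 in 186 (6.98%).

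**Figure D1:**
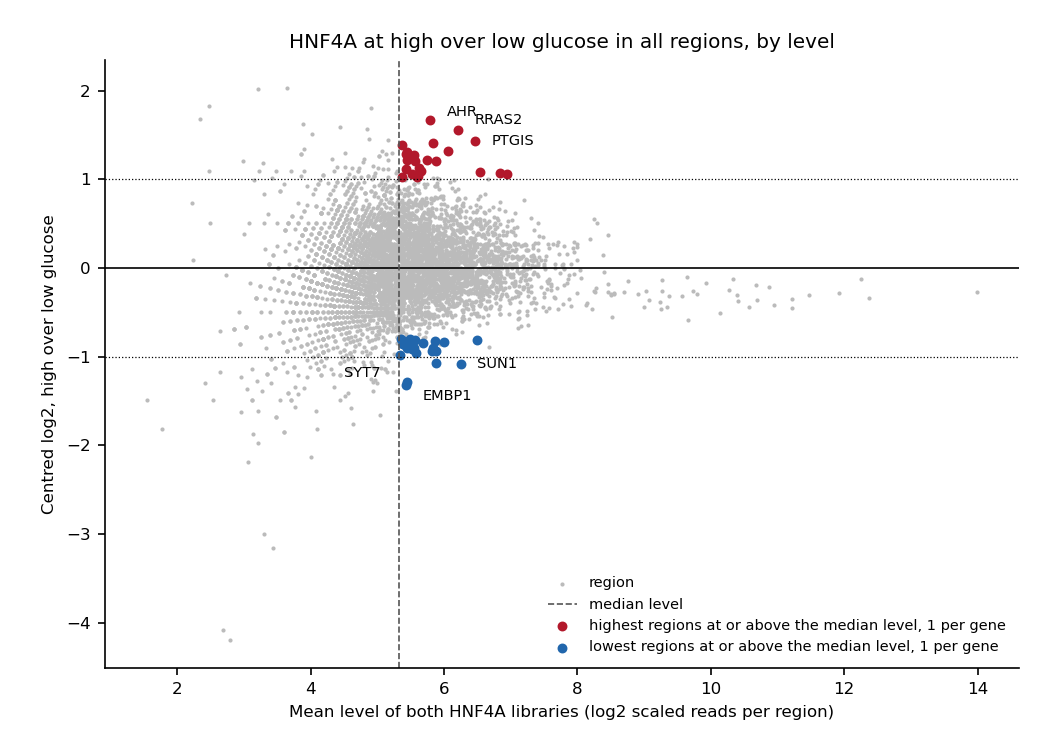
Centred log2 of HNF4A at high over low glucose (vertical axis) against the mean log2 level of both HNF4A libraries (horizontal axis), 1 point per region for 5326 regions. Dotted lines mark 2-fold, the dashed line the median level, and coloured points the highest and lowest regions, 1 per gene, with 1 of the 25 lowest not coloured; the far ends, down to -4.19, lie left of the dashed line.

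The highest end was led by AHR, RRAS2, PTGIS and ABCC11. The 25 highest regions, 1 per gene, ran from 1.02 to 1.66, that is 2.03-fold to 3.17-fold higher at high glucose. They were chosen by these values, so the values describe them and support nothing. Their reads numbered 66 to 196 at high glucose and 19 to 67 at low. In all 25 the counting interval excluded 0, and the authors' deposited table gives all 25 an unadjusted p under 0.05. The lowest p among them in the authors' deposited table was 0.000488.

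AHR encodes the aryl hydrocarbon receptor, a ligand-activated transcription factor that induces drug-metabolising enzymes. Its leading region, chr7:17138801-17139593, held 98 HNF4A reads in the high glucose library and 22 in the low. IgG held 13 and 15 reads there, nearly the same number at both glucose levels. The centred log2 was 1.66 (0.99 to 2.40) for HNF4A and -0.73 for IgG. The log2 ratio of HNF4A over IgG was 2.77 at high and 0.53 at low glucose. The other AHR regions, at chr7:17251599-17252357 and chr7:17337930-17339332, did not share the direction, at -0.28 (-1.23 to 0.69) and -0.34 (-0.94 to 0.26).

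RRAS2 encodes a RAS-related GTPase. Its region chr11:14279460-14280464 held 128 and 31 HNF4A reads and 13 and 14 IgG reads, a centred log2 of 1.56 (0.98 to 2.17). Its other regions stood at -0.04 and -0.64, so here too a single interval carried the difference. PTGIS, the prostacyclin synthase gene, had 151 and 40 reads at chr20:48210618-48211967, at 1.43 (0.91 to 1.97), with IgG near the middle at -0.09. A neighbouring PTGIS region stood at 0.53 (0.11 to 0.96), in the same direction, and the other at 0.00. ABCC11, an efflux transporter gene, had 97 and 26 reads at chr16:48238290-48239234, at 1.41 (0.77 to 2.09). POR, whose product passes electrons to the cytochrome P450 enzymes, had 72 and 21 reads at chr7:75536260-75537316, at 1.29 (0.57 to 2.06). For POR the IgG value was 0.70, on 21 and 9 reads, so background and HNF4A lay on the same side.

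Further genes of this end act in signalling and cell division. SIK2, a kinase of the AMPK-related family, had 73 and 21 reads at chr11:111472484-111474060, at 1.31 (0.59 to 2.08). IgG held 35 and 38 reads there. HNF4A was therefore above IgG at high glucose, at a log2 ratio of 0.91, and below it at low glucose, at -0.88. TRIB1, a pseudokinase gene, had 88 and 27 reads, at 1.21 (0.58 to 1.89), in 1 of its 7 regions, and the 7 ran from -0.21 to 1.21. CDKN2C, an inhibitor of cyclin-dependent kinases, had 80 and 26 reads, at 1.13 (0.48 to 1.83). ENSA, whose product restrains a phosphatase at mitosis, had 183 and 62 reads, at 1.07 (0.65 to 1.51). ERCC6L, a DNA translocase of anaphase, had 149 and 50 reads, at 1.08 (0.61 to 1.58).

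Among enzymes, AWAT1, an acyltransferase of wax esters, stood at 1.27 (0.58 to 2.01). GPCPD1, which cleaves glycerophosphocholine, stood at 1.26 (0.56 to 2.02). NANS, the sialic acid synthase gene, had the same 1.26 on 74 and 22 reads, but IgG held 23 and 5 reads there and stood higher still, at 1.68. TRIM14, an adaptor of antiviral signalling, was alike, with HNF4A at 1.04 and IgG at 1.15. These were the 2 of the 25 where the HNF4A over IgG ratio was not higher at high glucose.

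Of the other members, F11R, a tight junction adhesion gene, stood at 1.20 (0.60 to 1.84) with IgG at 0.82. CDC42EP2, an effector of the GTPase CDC42, stood at 1.21 (0.53 to 1.93), and IL1R1, an interleukin receptor gene, at 1.09 (0.45 to 1.78). LOC101927901, an uncharacterised locus, had the most reads of the 25, 196 and 67, at 1.06 (0.65 to 1.48), while IgG held 27 and 34. ISOC1, LOC100289230, LINC00294, C2CD2, C1orf100, DNAH12 and FCGBP make up the rest of the 25, from 1.39 for ISOC1 to 1.02 for FCGBP. By kind, 22 of these genes are protein coding, 2 are long noncoding RNAs and 1 had no match in the RefSeq gene table.

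Across the 25, IgG lay above 0 in 11 and below 0 in 14, with a median of -0.09, against 48.3% above 0 over all regions at or above this level. Its counting interval lay above 0 in 2 and below 0 in 1. The median log2 ratio of HNF4A over IgG was 1.97 at high and 0.95 at low glucose. That ratio contains the HNF4A values used in the choice, so its difference is partly built in. The IgG values were not used in the choice.

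**Figure D2:**
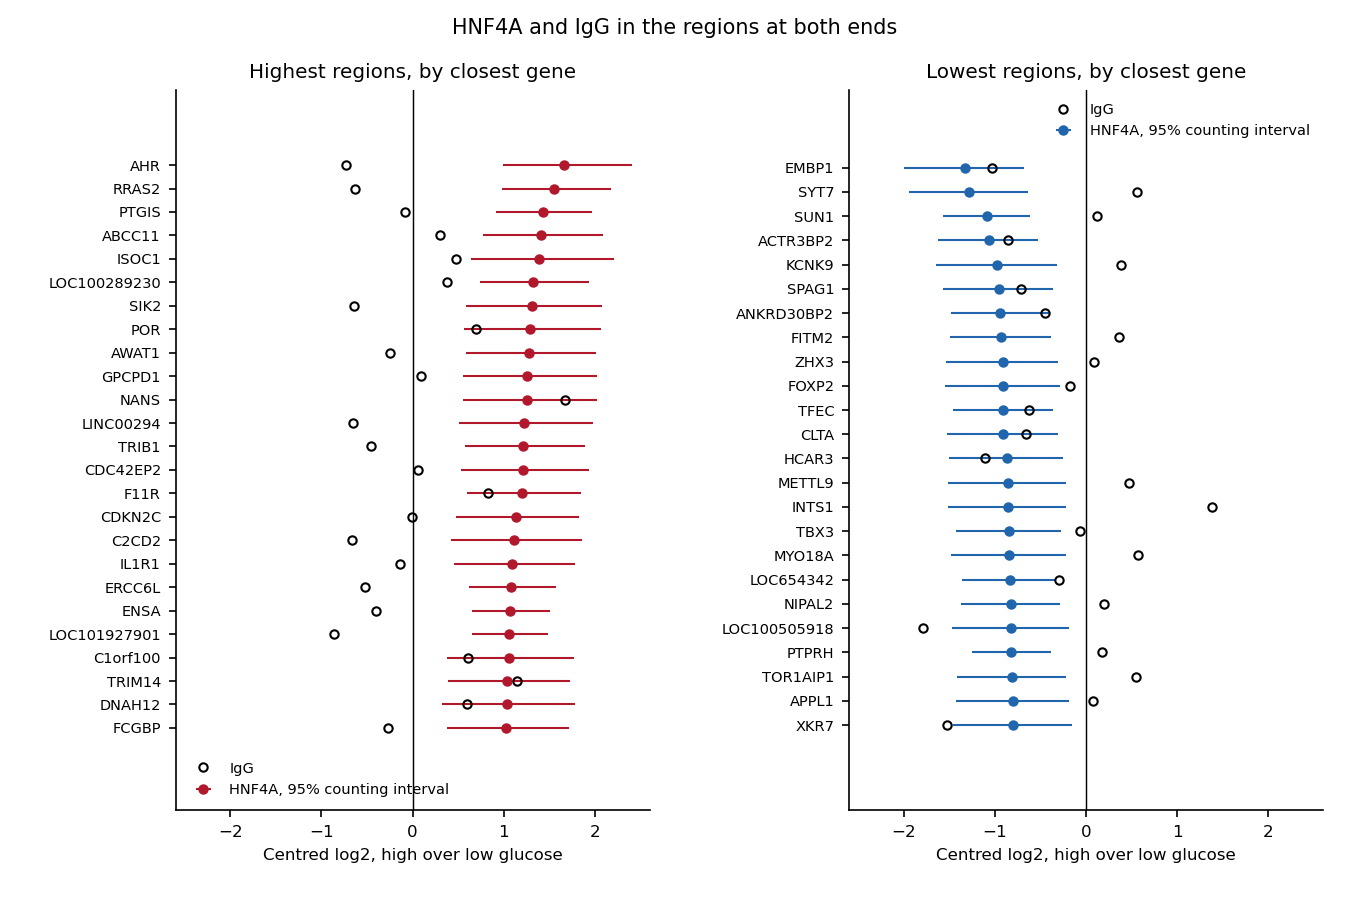
Centred log2 of high over low glucose for the 25 highest regions (left) and 24 of the 25 lowest (right), at or above the median level and 1 per gene, each named by its closest gene. Filled points with bars are HNF4A with exact 95% counting intervals, and open circles are IgG, which lie on both sides of 0 at both ends, for example at 1.68 for NANS and -0.73 for AHR.

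The lowest end, under the same level limit, was led by the pseudogene EMBP1, SYT7 and SUN1. Its 25 regions ran from -1.32 to -0.80, with 32 to 83 reads at high and 47 to 104 at low glucose. All 25 intervals excluded 0. These regions too were chosen by their values, so the values describe them and support nothing. In the authors' deposited table none of the 25 had an unadjusted p under 0.05, and the lowest p there was 0.0964. Those authors' values are not centred.

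SYT7 encodes a synaptotagmin, a calcium sensor of vesicle fusion. Its region chr11:61334448-61335138 held 33 reads of HNF4A in the high glucose library and 57 in the low, at -1.28 (-1.94 to -0.64). IgG held 68 and 32 reads there, so HNF4A was below IgG at high glucose, at a log2 ratio of -1.19, and above it at low glucose, at 0.81. The other SYT7 region, chr11:61348259-61349441, went the other way, at 0.75 (0.09 to 1.44) on 66 and 28 reads. SUN1, an inner nuclear membrane gene, had 63 and 95 reads at chr7:834264-835193, at -1.08 (-1.57 to -0.61), with IgG at 0.13.

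Several genes here encode regulators of transcription. ZHX3, a zinc finger and homeobox gene, stood at -0.91 (-1.53 to -0.30) and FOXP2, a forkhead gene, at -0.91 (-1.54 to -0.28). TFEC, of the MITF family, stood at -0.91 (-1.46 to -0.36), and TBX3, a T-box gene, at -0.84 (-1.43 to -0.27). INTS1, a subunit of the Integrator complex that processes small nuclear RNAs, stood at -0.86 (-1.51 to -0.22) on 38 and 49 HNF4A reads. IgG held 15 and 4 reads at INTS1, the opposite direction, at 1.38. The log2 ratio of HNF4A over IgG at high and low glucose was -0.53 and 0.35 at FOXP2. It was 0.10 and 0.54 at TFEC, where IgG stood at -0.62. At ZHX3 it was 0.69 and 1.85, at TBX3 0.95 and 1.88, and at INTS1 1.19 and 3.59. Of the 25 lowest regions, HNF4A lay below IgG in 9 at high glucose and in 0 at low.

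Among the other protein coding genes, FITM2, which promotes fat storage in lipid droplets, had 50 and 68 reads, at -0.93 (-1.49 to -0.39). HCAR3, a receptor of hydroxylated fatty acids, stood at -0.87 (-1.50 to -0.25), with IgG at -1.11. APPL1, an endosomal adaptor of adiponectin and insulin receptors, stood at -0.80 (-1.42 to -0.18). CLTA, the light chain of clathrin, stood at -0.91 (-1.52 to -0.30), with IgG at -0.66. KCNK9, a potassium channel gene, stood at -0.98 (-1.65 to -0.32), and PTPRH, a receptor tyrosine phosphatase gene, at -0.82 (-1.25 to -0.39) on the most reads of the 25, 83 and 104. The other KCNK9 region, chr8:140732214-140733017, lay on the other side, at 0.62 (-0.38 to 1.69) on 28 and 13 reads. SPAG1, METTL9, MYO18A, NIPAL2, TOR1AIP1 and XKR7 stood between -0.96 and -0.80.

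Pseudogenes were the closest gene of 4 of the 25 lowest regions and of 0 of the 25 highest, beside 168 of 5326 over all regions. EMBP1 led the end at -1.32 (-2.0 to -0.67) on 32 and 57 reads in a region of 102 bp, and IgG was as low, at -1.03 on 38 and 54 reads. ACTR3BP2 stood at -1.07 (-1.62 to -0.52) in 108 bp, with IgG at -0.86. Reads in such copies can belong to near-identical sequence elsewhere, so these counts are uncertain. Across the 25, IgG lay below 0 in 13 and above 0 in 12, with a median of -0.07 and 5 counting intervals below 0. Over all 5326 regions IgG intervals lay below 0 in 399 and above 0 in 257. The median log2 ratio of HNF4A over IgG was 0.10 at high and 1.15 at low glucose. Here too that ratio contains the HNF4A values used in the choice, so its difference is partly built in.

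The 2-fold limits cut through a continuous range. Just inside the upper limit stood DFNA5 and LOC101927243, both at 1.01, and just outside it LHFPL3-AS2 at 1.0 and C11orf86 at 0.99. At the lower limit SUN1 at -1.08 and ACTR3BP2 at -1.07 lay inside, and KCNK9 at -0.98 and SPAG1 at -0.96 outside.

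Gene groups were read with 1 region per gene, the one of the highest mean level, over 4323 genes. Of all these genes 50.8% lay above 0, 1.55% were at least 2-fold higher and 1.64% at least 2-fold lower. Intervals lay above 0 in 6.66% and below 0 in 5.09%, the median was 0.01, and IgG lay above 0 in 52.3%. The counts of a list are descriptions to be set beside those shares. The mean level is not centred, so a gene's region can be picked through its high glucose reads alone.

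Of bile acid and drug metabolism genes, 8 of 9 with a region lay above 0, with a median of 0.38, and 3 were at least 2-fold higher. Those 3 were AHR, ABCC11 and POR. All 3 are among the 25 highest regions named above, so the list is no separate support for them. AHR stood here by its region of 98 and 22 reads, while its other regions stood at -0.28 and -0.34. ARNT, the dimer partner of AHR, held 194 and 90 reads, at 0.62 (0.25 to 0.99). NQO1, a quinone reductase gene that AHR induces, stood at 0.38 (-0.19 to 0.97), and CYP27A1, a bile acid synthesis enzyme, at 0.31 (-0.19 to 0.82). CYP3A5, a drug-oxidising cytochrome, was the member below 0, at -0.83 (-1.78 to 0.10) on 19 and 24 reads. The list median for IgG was -0.32, on the other side of 0.

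Of glycolysis and glucose uptake genes, 10 of 13 lay above 0, with a median of 0.24, and 1 interval lay above 0. That was SLC2A2, the glucose transporter of hepatocytes, with 43 and 15 reads at chr3:170745690-170746624, at 1.03 (0.15 to 1.98). LDHB, a lactate dehydrogenase subunit, stood at 0.68 (-0.04 to 1.44), PGAM1, a phosphoglycerate mutase, at 0.51 (-0.30 to 1.36), and TPI1, the triose phosphate isomerase, at -0.20 (-0.60 to 0.20). Gluconeogenesis and glycogen genes lay closer to the middle, 4 of 5 above 0 with a median of 0.09 and no interval apart from 0.

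Lipoprotein and cholesterol genes lay above 0 in 9 of 11, with a median of 0.22 and 2 intervals above 0, those of APOE and TRIB1. For TRIB1 the list takes chr8:126440876-126443231, at 0.48 (0.08 to 0.90), not the region at 1.21. IgG held 88 and 75 reads there. APOE, an apolipoprotein gene, held 75 and 32 reads at chr19:45406688-45408310, at 0.74 (0.12 to 1.38), and LIPC, hepatic lipase, stood at 0.56 (-0.38 to 1.55). APOA1, the main protein of high-density lipoprotein, stood on the other side at -0.34 (-1.13 to 0.45). Fatty acid and triglyceride genes lay around the middle, with 11 of 20 above 0 and a median of 0.01. Within that list AWAT1 was high, CD36, a fatty acid transporter, stood at 0.58 (0.03 to 1.14), and FITM2 was low. Phospholipid genes were 6 of 10 above 0 with a median of 0.03, led by GPCPD1.

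Of liver transcription factors, 8 of 12 lay above 0, with a median of 0.17 and 1 interval above 0. NR1D1, a circadian nuclear receptor gene, held 91 and 34 reads, at 0.93 (0.35 to 1.54), and its other region stood at 0.14 (-0.44 to 0.74). CREB3L3, a hepatic factor of lipid metabolism, stood at 0.73 (-0.03 to 1.54), and RXRA, the retinoid X receptor, at -0.53 (-1.18 to 0.13). HNF4A itself had 43 and 35 reads in its region chr20:43029574-43030526, at -0.19 (-0.87 to 0.49), an interval on both sides of 0. Secreted hepatocyte proteins were 1 of 6 above 0, with a median of -0.15. The 1 was AGT, angiotensinogen, at 0.89 (0.33 to 1.49), where IgG stood at 0.67, and the IgG median of that list was 0.63. Prostanoid and steroid synthesis genes were 3 of 6 above 0 with a median of -0.06.

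AMPK and mTOR pathway genes lay near the middle as a group, 12 of 21 above 0 with a median of 0.08, while 3 intervals lay above 0 and 0 below. They belong to SIK2, FNIP1 and PRKAG2. FNIP1, a folliculin partner that binds AMPK, stood at 0.69 (0.08 to 1.33). PRKAG2, an AMPK gamma subunit gene, stood at 0.68 (0.21 to 1.17) in chr7:151441727-151443025, on 124 and 55 reads. The 7 PRKAG2 regions spread from -0.66 to 0.92, with 2 intervals above 0 and 1 below. RICTOR, the scaffold of mTOR complex 2, stood lowest at -0.62 (-1.52 to 0.28). STK11, which encodes LKB1, a kinase that activates AMPK, had 1 region at 0.12 (-0.50 to 0.75) and a shorter one at -2.19 (-4.26 to -0.50) on 4 and 13 reads. Insulin and PI3K genes were 4 of 7 above 0 with a median of 0.19.

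Growth and signalling genes gave similar pictures. Cell cycle and survival genes were 9 of 13 above 0, with a median of 0.28 and 4 intervals above 0. Besides CDKN2C these were MYC, a proto-oncogene, at 0.77 (0.19 to 1.37), AURKA, a mitotic kinase, at 0.65 (0.15 to 1.18), and BCL2L1, a survival gene, at 0.47 (0.09 to 0.85). CCNE1, cyclin E, stood at -0.58 (-1.20 to 0.03). Wnt pathway genes, which hold MYC as well, were 12 of 18 above 0 with a median of 0.24. AXIN2, a feedback inhibitor of Wnt, stood at 0.86 (0.22 to 1.53), WNT3, a ligand, at 0.66 (0.17 to 1.17), and WNT5B, another ligand, at -0.52 (-1.14 to 0.10). The other AXIN2 region stood at -0.19 (-0.87 to 0.51). RAS and MAPK genes were 10 of 18 above 0 with a median of 0.08, and they reached both sides. RRAS2 and DUSP6, an ERK phosphatase at 0.64 (0.15 to 1.15), had intervals above 0. RALB, a RAS-like GTPase, was 1 of the 2 with an interval below, at -0.79 (-1.37 to -0.21).

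The medians of the remaining lists lay close to 0. TGF-beta and SMAD genes were 8 of 14 above 0, with a median of 0.02 and no interval apart from 0. Chromatin genes were 21 of 34 above 0, with a median of 0.03. Ubiquitin genes were 14 of 26 above 0, with a median of 0.02, and spread widely, from NEDD4, a ubiquitin ligase, at 1.12 (0.35 to 1.95) to USP47, a deubiquitinase, at -1.14 (-2.22 to -0.11). Ribosome and translation genes were 9 of 20 above 0 with a median of -0.04, and autophagy and lysosome genes 5 of 11 with a median of -0.04. Among markers of other tissues, epithelial and mesenchymal genes were 5 of 8 above 0 with a median of 0.10, and the caveolins CAV1 and CAV2 had its 2 intervals below 0. Neuron and synapse genes were 6 of 12 above 0 with a median of -0.01 and an IgG median of 0.43, with 1 interval above 0 and 3 below. The highest value, 0.75, is that of the SYT7 region chr11:61348259-61349441. The SYT7 region of the lowest end, at -1.28, had the lower mean level and is not counted here. Of blood, endothelial and stromal genes a single one had a region, at -0.08. These lists name regions of DNA and say nothing of the cells present.

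**Figure D3:**
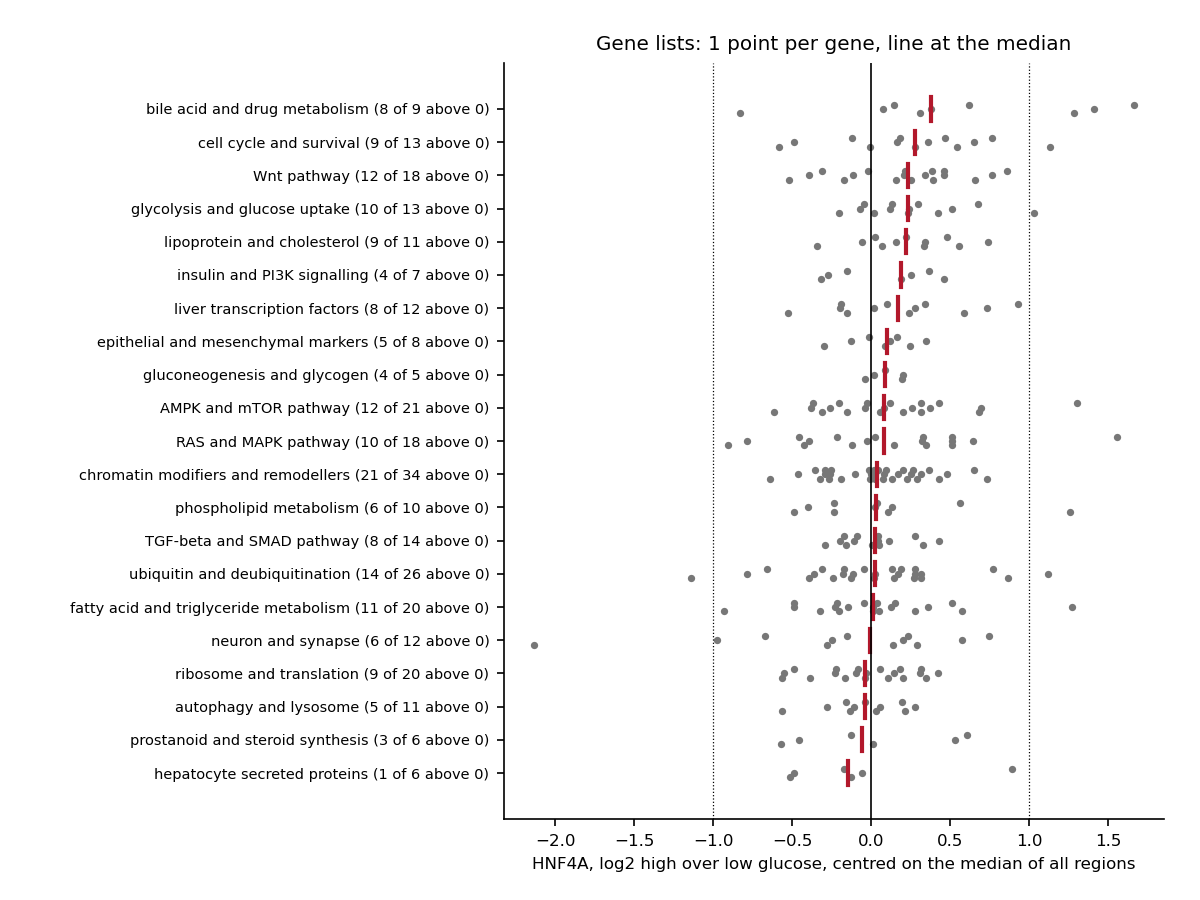
Centred log2 of HNF4A at high over low glucose for the members of the gene lists with at least 3 regions, 1 point per gene (points are offset vertically for legibility), a red line at each list's median and dotted lines at 2-fold. Medians run from 0.38 for bile acid and drug metabolism to -0.15 for secreted hepatocyte proteins, and most lists have members on both sides of 0.

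Gene families were also read by their symbols, beside the 50.8% of all genes above 0, and differences between families were not tested. Genes with a symbol of zinc finger genes (ZNF) lay above 0 in 38.1%, and below it in 70 of 113, with a median of -0.12, 1 interval above 0 and 9 below. Among them ZNF274, a repressor of repeated genes, stood at -0.61 (-1.02 to -0.21) on 100 and 109 reads, and ZNF143, a promoter-binding factor, at -0.69 (-1.34 to -0.05). For IgG the median of the 113 was 0.00. The symbol also takes in the pseudogene ZNF733P and the antisense RNA gene ZNF561-AS1, the lowest of the 113 at -1.14 (-2.22 to -0.11). Solute carriers (SLC) lay above 0 in 47 of 79 (59.5%), with a median of 0.09 and 7 intervals above 0 against 1 below. SLC29A3, a nucleoside transporter, stood at 1.26 (0.44 to 2.17), and SLC35D1, a nucleotide sugar transporter, at 0.71 (0.07 to 1.38), where IgG stood at 0.80 and the HNF4A over IgG ratio was not higher at high glucose. SLC4A7, a bicarbonate cotransporter, was the low one at -0.86 (-1.58 to -0.15). Long intergenic RNA genes (LINC) lay above 0 in 60 genes and below in 41 (59.4% above), with a median of 0.14, 13 intervals above 0 and 4 below, and an IgG median of -0.11. LINC00294 was the highest at 1.22 (0.51 to 1.98), and LINC01446 the lowest at -1.05 (-1.93 to -0.21).

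MicroRNA genes were the closest gene in 162 regions, with a median of 0.04, and 119 of their 135 genes matched the RefSeq table of mature sequences. Their mature forms are shown for 5 of the 10 genes at the ends of the 67 ranked, whose region reached the median level, to name the molecules concerned. Bases 2 to 8, the seed that pairs with targets, are in capitals, and the sequences are from RefSeq (GRCh38.p14). At the high end, MIR4272 stood at 0.74 (0.09 to 1.42) on 68 and 29 reads, MIR1288 at 0.64 (0.18 to 1.1) on 131 and 60, and MIRLET7A1 at 0.50 (0.11 to 0.90) on 163 and 82. IgG stood at -1.30, -0.16 and 0.55 at these genes, so at MIRLET7A1 the background was as high as HNF4A. MIR3193, at 0.63 (0.19 to 1.07), and MIR3128, at 0.62 (-0.01 to 1.28), ranked above MIRLET7A1 and are not shown. IgG stood at 0.60 and -0.53 at MIR3193 and MIR3128.
hsa-miR-4272: cAUUCAACuagugauugu
hsa-miR-1288-5p: gCAGAUCAggacuguaacucacc
hsa-miR-1288-3p: uGGACUGCccugaucuggaga
hsa-let-7a-5p: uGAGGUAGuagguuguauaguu
hsa-let-7a-3p: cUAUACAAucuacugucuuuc
At the low end, MIR4718 stood at -0.51 (-0.94 to -0.07) on 91 and 92 reads, and MIR193A at -0.49 (-1.07 to 0.09) on 53 and 53. IgG stood at -0.71 and -0.02, so at MIR4718 the background was lower still. MIR6827, at -0.58 (-1.19 to 0.02) with IgG at -0.20, ranked lowest and is not shown.
hsa-miR-4718: aGCUGUACcugaaaccaagca
hsa-miR-193a-5p: uGGGUCUUugcgggcgagauga
hsa-miR-193a-3p: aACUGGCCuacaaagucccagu
No seed recurred among the 16 mature forms of the 10 genes at these ends. Let-7a is a conserved family that represses growth genes. Regions of fewer reads went further, from a MIR4436A region at -1.81 (-3.03 to -0.70) on 10 and 25 reads to MIR1910 at 1.15 (0.32 to 2.06) on 50 and 16. With 1 region per gene, MIR135A2 was the lowest, at -1.65 (-2.47 to -0.88) on 21 and 47 reads.

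Regions of 1 gene often lay on both sides of 0. Centring puts 50% of all regions above 0, so unrelated regions would often split too. The counts are a description and no result about regions that share a gene. Of 661 genes with 2 regions or more, 365 (55.2%) had regions on both sides of 0, 170 had all above and 126 all below. NEDD4, at 1.12 in 1 region, lay between -0.22 and -0.39 in its other 3. Of the 51 genes with 4 regions or more, 3 had every region above 0 and 6 every region below.

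PHLDA1, a pleckstrin homology gene, was among the 3, with 4 regions from 0.28 to 0.56 and a median of 0.38. Its 4 regions together held 504 reads of HNF4A in the high glucose library and 267 in the other, and its IgG median was -0.63. ETS1, a transcription factor, ran from 0.04 to 0.75, with a median of 0.24. ASAP1, a regulator of ARF GTPases, had the highest median of the 51, 0.49, but its 6 regions ran from -0.74 to 0.72. TFEC was among the 6 genes with every region below 0, with 6 regions from -0.91 to -0.16, a median of -0.68, and 518 and 551 reads in all. IgG was below 0 in all 6 TFEC regions as well, with a median of -0.60. In the 10 genes of lowest median, the IgG median was below 0 for all 10. In the 10 of highest median it was above 0 for 4.

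**Figure D4:**
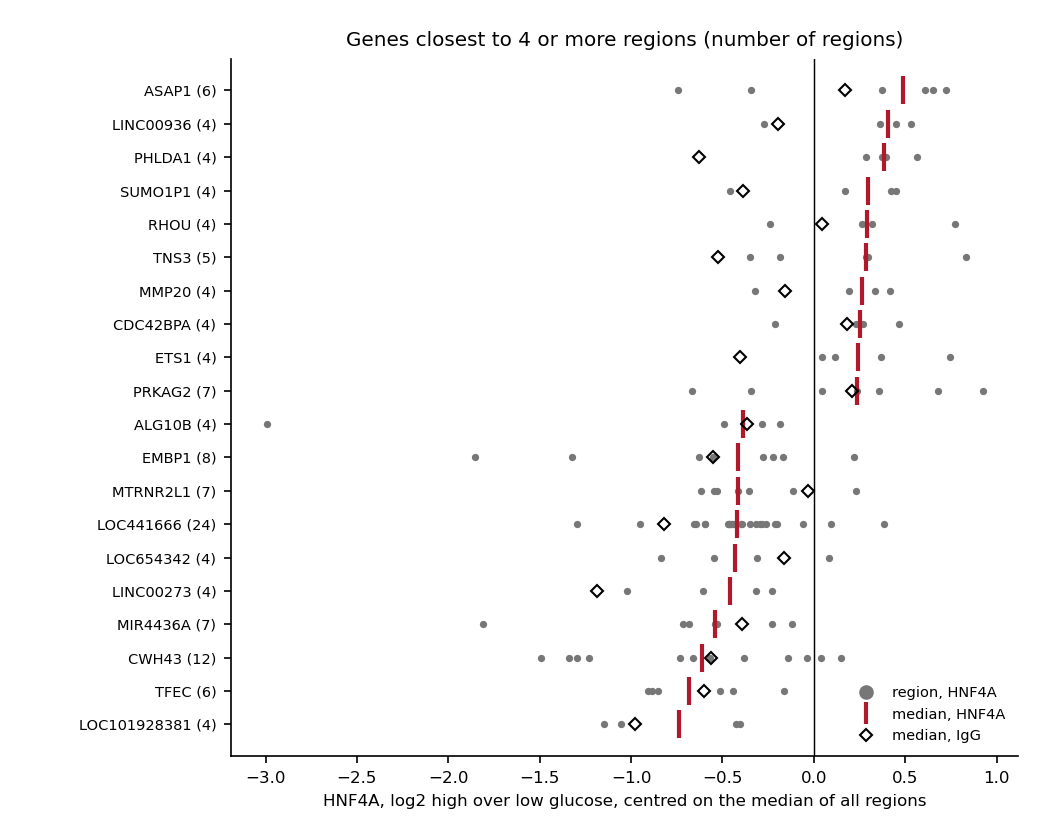
Centred log2 of HNF4A at high over low glucose for every region (grey points) of genes with 4 or more regions, with the HNF4A median (red line) and the IgG median (open diamond), for 10 genes of highest and 10 of lowest median, leaving out 1 chromosome Y pseudogene and 1 gene whose name reads as a date. The IgG diamonds of the lower genes lie left of 0, for example at -0.60 for TFEC, and those of the upper genes on both sides.

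Short regions lay on the low side. Split by length into 4 sets of nearly equal number, the shortest regions, up to 792 bp, had a median of -0.21, against 0.04, 0.06 and 0.03 in the longer sets. The shortest set held 103 of the 107 regions that were at least 2-fold lower, or 96.3%, and 21 of the 90 at least 2-fold higher. IgG in the shortest set had a median of -0.11. Short regions hold few reads, a median of 26 and 21 in that set, and length and level had a Spearman correlation of 0.847 across the 5326 regions, which share the same libraries. The shortest set was lower than the longer regions in each quartile of level, at -0.21, -0.18, -0.12 and -0.28 from the lowest level to the highest, against 0.18, 0.04, 0.05 and 0.02. In the lowest quartile of level, 86 of 1000 short regions and 0 of 336 longer ones were at least 2-fold lower. The IgG medians of the short sets were -0.04, 0.03, -0.39 and -0.71, and their part in the result was not tested.

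Pseudogenes, unplaced sequence and the regions of most reads leaned low in HNF4A and in IgG alike. The 168 regions nearest to pseudogenes had an HNF4A median of -0.21, with 41 intervals below 0 and 2 above, and an IgG median of -0.53. The 43 regions on unplaced or random contigs had medians of -0.45 and -0.67. Of the HNF4A reads inside the 5326 regions, those contigs took 1.57% at high and 2.07% at low glucose, but 2.97% and 2.92% of the IgG reads there. The 10 regions of highest level, which hold 12.2% of the HNF4A reads inside these regions at high glucose, were all below 0, with a median of -0.32, and IgG stood at -0.65. In 92 regions both intervals lay below 0. Of these, 35 were nearest to pseudogenes and 23 lay on chromosome 7 between MDFIC and CAPZA2. That stretch, chr7:114521701-116505281, holds the TFEC regions and those of the caveolin genes CAV1 and CAV2. Of its 35 regions 31 were below 0, with a median of -0.30 for HNF4A and -0.62 for IgG. The part of the background in the low values of TFEC and its neighbours was not tested.

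**Figure D5:**
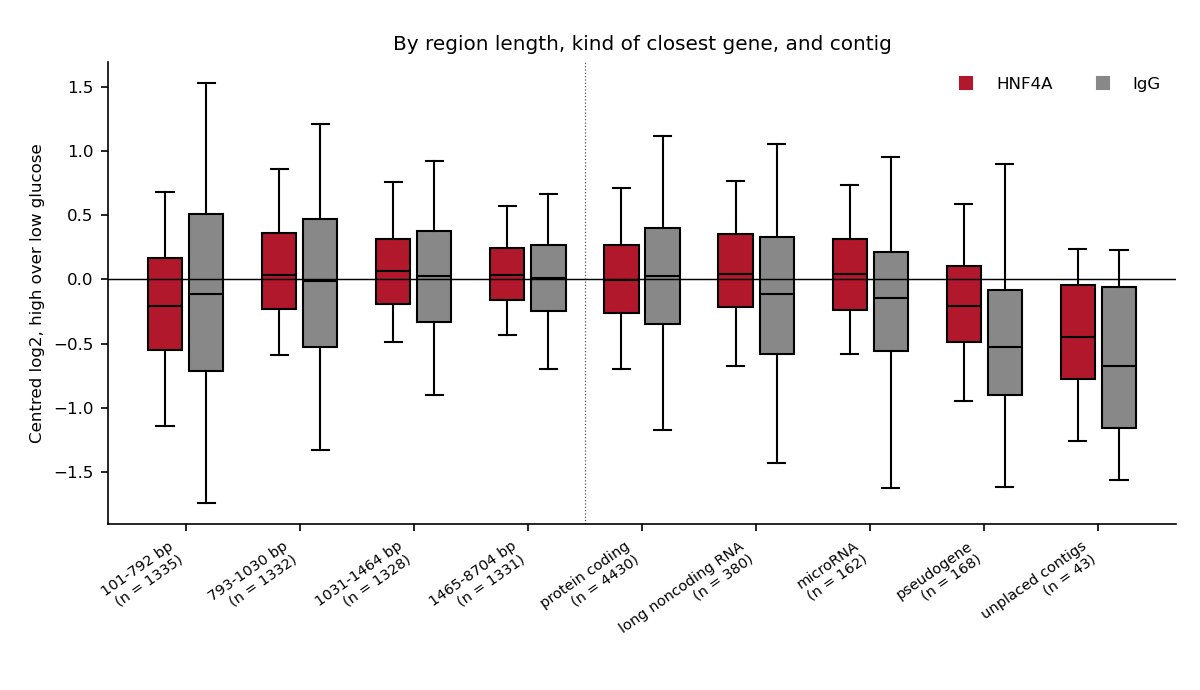
Centred log2 of high over low glucose for HNF4A (red) and IgG (grey) by quartile of region length, by kind of closest gene and on unplaced contigs, with the number of regions under each pair. Boxes span the quartiles with a line at the median, and whiskers the middle 90% of regions; pseudogenes (-0.21 for HNF4A, -0.53 for IgG) and contigs (-0.45 and -0.67) sit low in both.

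Over all regions the centred values of HNF4A and IgG had a Spearman correlation of 0.020 across the 5326 regions, a description, since regions share the libraries. Medians by chromosome, for the 22 with at least 30 regions, ran from -0.08 to 0.18 for HNF4A and from -0.26 to 0.43 for IgG.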

How the data were processed

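The submitters' processing notes name bcl2fastq, Bowtie 1.1.2, MACS, DiffBind and HOMER, with build hg19. The settings of these tools are not stated in the sources used here. In all, the authors deposited 3 tables over the same 5326 regions. Per the file headers, they give a log2 level per side, a fold, a p-value and a false discovery rate for each region, and its closest gene. On the linear scale, 100% of a library's levels fell on whole multiples of 1 step, within 0.01 reads, which gave the reads. Which column of the HNF4A table is which glucose level was settled by its reads, identical to those of the other tables in 5326 of 5326 regions. High minus low was centred on the median over all regions. Counting intervals are exact (Clopper-Pearson, 95%), and PCR copies are not independent molecules. The interval code was tested on simulated data. No replicate exists, so no test was run.

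Named genes are the 25 highest and 25 lowest centred values at or above the median level, 1 per gene, up to 3 members per list, HNF4A, and 5 genes with at least 4 regions at each end. Not every one is reported, and genes beyond this rule (among them those at the far ends, at the 2-fold limits, of the gene families and microRNAs, and further list members) were chosen after their values were seen. The regions, 22 gene lists and comparisons were chosen with earlier results of these data known. Of 4323 closest genes, 4191 matched RefSeq (GRCh38.p14) by symbol or synonym, which gave their kind. MicroRNA genes of chromosome 8 were left out of the ranking of microRNAs. In 7 regions the gene name reads as a date and in 33 no gene is listed. Genome sequence of hg19 was not used here, so no region's sequence is shown. Python 3.11.15, pandas 2.3.3, numpy 2.4.6, scipy 1.17.1 and matplotlib 3.10.9 were used.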

Additional observations from a re-analysis of the deposited data

Results flagged for a closer look

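Regions that reach the median level and whose HNF4A and IgG intervals lie on opposite sides of 0 were ranked by the gap between both values, and the 5 widest are given. The differences were not tested. USP38, a deubiquitinase gene, held 110 and 43 HNF4A reads but 5 and 21 IgG reads at high and low glucose, and HNF4A minus IgG was 3.46 in centred log2. DFNA5, the gasdermin E gene, held 65 and 23 against 9 and 17, a difference of 2.45. LOC101927901 held 196 and 67 against 27 and 34, a difference of 1.92. CDC42EP3, an effector of CDC42, held 57 and 63 against 56 and 15, a difference of -2.01, and POP5, a subunit of ribonuclease P, held 39 and 45 against 45 and 16, a difference of -1.66. In all, 31 of 5326 regions had intervals on opposite sides, 20 with HNF4A higher at high glucose and 11 with IgG higher. Over all regions HNF4A intervals lay above 0 in 356 and below in 311, and IgG intervals in 257 and 399. In 19 regions both intervals lay above 0, none of them nearest to a pseudogene.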

How the results depend on the processing

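The number of 2-fold regions moved with several choices. Over all regions, 90 higher and 107 lower became 361 and 38 without centring, 34 and 53 with 5 reads added to each library, and 574 and 490 for the difference of the ratios over IgG. With at least 50 reads over both libraries, 64 were higher and 31 lower. At or above the median level, 30 and 4 became 154 and 0 without centring, 196 and 97 for the difference of ratios, and 6 and 1 in the upper quartile of level. With 5 reads added, 22 of the 25 highest and all 25 lowest stayed in their sets. Named genes were recomputed with 5 reads added and for the difference of ratios. Under the latter 10 of 50 moved without turning. Some moved towards 0, among them F11R to 0.37 and ACTR3BP2 to -0.22. Others moved away from it, among them RRAS2 to 2.18 and INTS1 to -2.25. The direction turned for NANS (-0.43), TRIM14 (-0.12), HCAR3 (0.23), LOC100505918 (0.96), XKR7 (0.72) and 1 pseudogene of chromosome Y (0.23). Of the gene lists, bile acid and drug metabolism had 100% of its 7 members at or above the median level above 0. That limit can be passed through high glucose reads alone, and it leaves out CYP3A5, the member below 0. For the difference of ratios, epithelial and mesenchymal genes had 100% above 0, the single blood and stromal gene 100%, and neuron and synapse genes 16.7%. The cause of these shifts was not tested. No paired analysis was possible because each group has 1 library. Of the counting intervals 4659 of 5326 include 0, and 1070 of 1331 in the upper quartile of level, and each value stands on 1 library per side.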
